A study of Homo sapiens with 2 samples.

Results

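EIF1AX, MAP3K7 and PRKAR1A are the 3 genes with the highest single ac4C peaks by log2 change after knockout of NAT10 in A549 cells. By the mean over its peaks, EIF1AX was number 15. The genes were chosen by the log2 change of their highest peak between the libraries, so that change is described here and not tested. The peaks were found by gene name in the table of listed peaks. The 3 genes held 4 of the 647 peaks, and 3 of the 490 genes with a listed peak. EIF1AX had 2 peaks, MAP3K7 had 1 and PRKAR1A had 1.

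A549 is a human lung adenocarcinoma cell line. The control group (WT) was A549 without an edit. The other group (NAT10-KO) was A549 in which NAT10 had been disrupted with CRISPR/Cas9 and a pair of guide RNAs, reported by the study as homozygous. Each group had 1 library. The knockout was a line grown from a single cell and selected, so the effect of the knockout and a difference between that clone and the parent cells cannot be told apart. In acRIP-seq, fragments of total RNA that carry ac4C are captured with an antibody, and peaks are the places along transcripts where the capture holds more reads than the input RNA.

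N4-acetylcytidine (ac4C) is an acetylated form of cytidine, and NAT10 is the enzyme known to place it on RNA. On messenger RNA it has been linked to transcript stability and translation. The 3 genes encode proteins of separate systems. EIF1AX encodes eIF1A, a factor that binds the small ribosomal subunit and helps it scan to the start codon. MAP3K7 encodes TAK1, a kinase that passes signals from TGF-beta, interleukin-1 and TNF receptors to NF-kappaB and to the JNK and p38 kinases. PRKAR1A encodes a regulatory subunit of protein kinase A, which holds the catalytic subunits inactive until cyclic AMP binds.

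For each peak, the deposited table holds a fold enrichment over input (a ratio over both libraries together) and a log2 change. A value above 0 is taken to mean more signal in the knockout, on the basis given with the processing. No value of a single library is used, so a level for WT and a level for NAT10-KO cannot be printed. There are no replicates, and the p-values in the authors' table compare these 2 libraries, not the conditions. It is not stated whether the change was corrected for transcript level. The study also ran RNA-seq on WT and NAT10-KO cells, which was not used here. More modification per transcript and more transcript thus cannot be told apart from the values used here. Likewise, in bulk RNA fewer cells with a transcript and less RNA of it per cell cannot be told apart. Read counts were not used here, and the depth behind each value is unknown. A peak is called higher here when its log2 change was over 1, and lower when it was under -1.

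Over the whole table, log2 changes ran from -9.47 to 3.99 with a median of 0.05, and fold enrichments from 1.13 to 203 with a median of 2.24. Of the epithelial markers fixed for A549, KRT19 had 3 listed peaks, with log2 changes from -0.72 to 0.50, and the other 5 genes were not listed. Of 8 smooth muscle markers, 5 were listed with 14 peaks, all lower, with log2 changes from -9.47 to -2.00. Over all listed peaks, 18.7% were lower. A peak is not an expression level, and the part of such RNA in the values of EIF1AX, MAP3K7 and PRKAR1A was not tested.

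The EIF1AX transcript (ENSG00000173674, minus strand of chromosome X) carried the peak with the largest increase of all. This peak ran from 20128196 to 20130550 (hg38) and was assigned to the 3'UTR. Its log2 change was 3.99, a 15.9-fold higher signal in the NAT10-KO library. Its fold enrichment over input was 2.64. In the authors' table the p of the difference was 3.4e-06 and the adjusted p 1.8e-05. The enrichment over input had p = 3.2e-08 and an adjusted p of 1.2e-05 in the authors' table.

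The same EIF1AX peak consisted of 2 blocks. The block from 20128196 to 20128311 covered 116 bases, and the block from 20130516 to 20130550 covered 35 bases, or 23.2% of the peak. The 2204 bases between them were not part of the peak. On the minus strand the shorter block is the upstream one. Exon borders were not used here, so whether the gap is an intron was not checked. Among the 214 peaks assigned to the 3'UTR, 25 had more than 1 block (11.7%). Of the 58 that were higher, 57 had 1 block, and the peak of EIF1AX was the only one with more.

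EIF1AX had a second peak 58 bases further downstream, from 20127957 to 20128137, also in the 3'UTR and in 1 block of 181 bases. Its log2 change was 1.74 (3.34-fold), with a difference p of 0.0019 and an adjusted p of 0.0051 in the authors' table. Its fold enrichment of 1.97 was lower than that of its neighbour, and its adjusted p of enrichment was 0.096. Both peaks were higher after knockout, but the changes differed by 2.25 on the log2 scale. Both lay inside the RefSeq span of EIF1AX on GRCh38.p14 (20124525 to 20141838), at 3432 and 3671 bases from the 3' end of the gene.

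**Figure D1:**
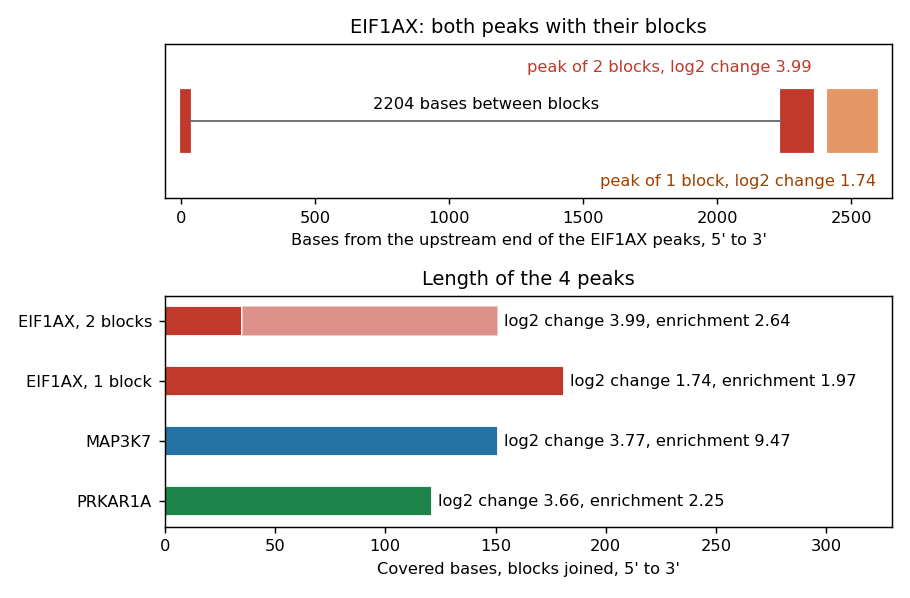
The upper panel places both EIF1AX peaks to scale in bases, read 5' to 3' along the transcript, with filled boxes for blocks and a line for the 2204 bases between the blocks of the upstream peak. The lower panel gives the covered bases of the 4 peaks, from 121 in PRKAR1A to 181 in the downstream peak of EIF1AX, with log2 change and fold enrichment printed beside each bar, and the paler part of the first bar is its downstream block.

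To set the EIF1AX pair beside other transcripts, consecutive listed peaks of one gene that lay at most 200 bases apart were compared. There were 23 such pairs, and the median absolute difference of their log2 changes was 0.45. The EIF1AX pair holds the peak that EIF1AX was chosen by, the highest of all, so its place among the pairs is a description. The peaks of 2 pairs differed by more than those of EIF1AX. They belonged to RAD21, a cohesin subunit, with log2 changes of 3.29 and -0.27, and to the lincRNA gene FP236383.2, with 2.20 and -0.59. In both of these pairs one peak lay above 0 and the other below. The lower RAD21 peak had a difference p of 0.32 in the authors' table. Both EIF1AX peaks were above 0, the higher one by the choice of the gene. Of the 102 genes with more than 1 listed peak, 5 had all their peaks over a log2 change of 1. These were EIF1AX, PSMD12, PTGES3, RBBP6 and YWHAZ, each with 2 peaks. This count uses the change alone, and over all listed peaks 17.5% were over 1. The higher peak of EIF1AX passed by the choice of the gene.

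**Figure D2:**
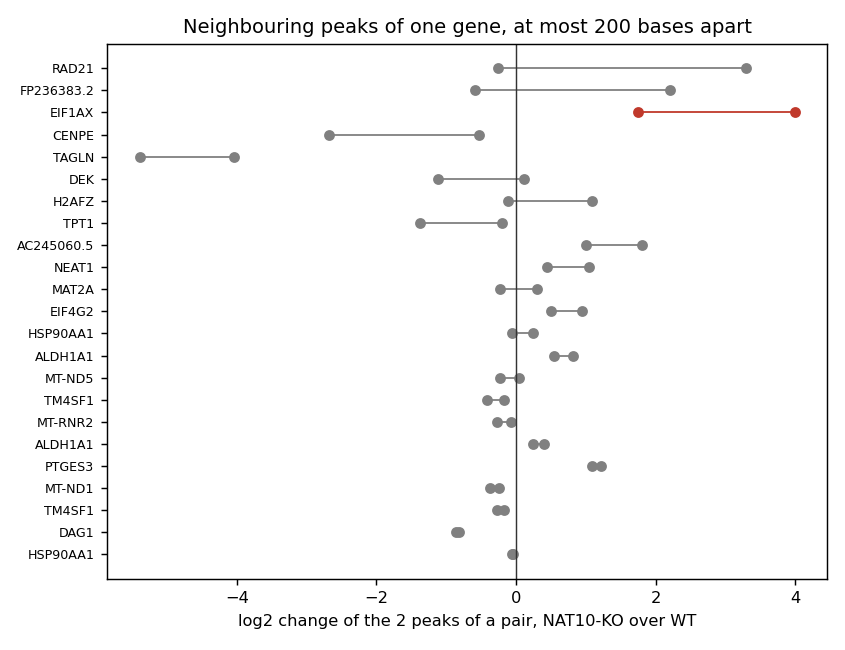
Each row is a pair of consecutive listed peaks of one gene, at most 200 bases apart, and the points are the log2 changes (NAT10-KO over WT) of the 2 peaks, joined by a line. The EIF1AX pair, in red, spans 1.74 to 3.99, and of the 23 pairs those of RAD21 and FP236383.2 alone differ more.

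MAP3K7 (ENSG00000135341, minus strand of chromosome 6) had 1 peak, at 90515822 to 90515972 (hg38), in 1 block of 151 bases assigned to the 3'UTR. The log2 change was 3.77 (13.6-fold). With a fold enrichment of 9.47, it was the most enriched of the 4 peaks, and 89.8% of the other listed peaks had a lower value. A high ratio alone is not strong evidence of enrichment. The ATF2 peak, at 8.87, had an adjusted p of enrichment of 0.22 in the authors' table. That p was 1.2e-05 for the 2-block EIF1AX peak, at a ratio of 2.64, and 0.0050 for MAP3K7. For MAP3K7 the p of the difference was 0.030 and the adjusted p 0.055 in the authors' table, both larger than for either EIF1AX peak. The peak was chosen by this change between 2 libraries, so these values only describe it. Among the 113 higher peaks, 85 had a smaller p of the difference. The peak lay 2243 bases from the 3' end of the RefSeq gene span, or 3.05% of its length of 73494 bases.

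PRKAR1A (ENSG00000108946) had 1 peak on chromosome 17, at 68532141 to 68532261 (hg38) of the plus strand. It was a single block of 121 bases, the shortest of the 4, and was assigned to the 3'UTR. Its log2 change was 3.66 (12.6-fold), with a difference p of 0.0047 and an adjusted p of 0.011 in the authors' table. The enrichment itself was weak. The fold enrichment was 2.25, close to the median of all listed peaks, with p = 0.010 and an adjusted p of 1 in the authors' table. An adjusted p of enrichment of 1 was given for 72 of the 647 peaks, and 18 of these were higher after knockout. The peak lay 19055 bases from the 3' end of the RefSeq gene span, which takes in the ends of all transcripts of the gene.

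Thus the 4 peaks shared the assignment to the 3'UTR and the direction of the change, but not the strength of the enrichment. All 4 were higher after knockout. For the highest peak of EIF1AX, MAP3K7 and PRKAR1A this follows from the choice of the genes and is read as no result. The downstream EIF1AX peak, at 1.74, was not fixed by that choice, but it belongs to a gene chosen by its other peak. Over all listed peaks 17.5% were higher, and 13.8% were higher with a difference p under 0.05. With the adjusted p of the difference under 0.05 as well, 3 of the 4 remained, and the peak of MAP3K7 did not pass. Of all 647 listed peaks, 82 were higher at that threshold. The adjusted p of enrichment was under 0.05 for MAP3K7 and the 2-block peak of EIF1AX, and over it for PRKAR1A and the other peak of EIF1AX. In the whole table it was at or over 0.05 for 157 peaks, and for 43 of the 113 higher ones. By fold enrichment, 39.5% of the other listed peaks were below the downstream EIF1AX peak, 50.5% below PRKAR1A and 61.3% below the 2-block EIF1AX peak.

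**Figure D3:**
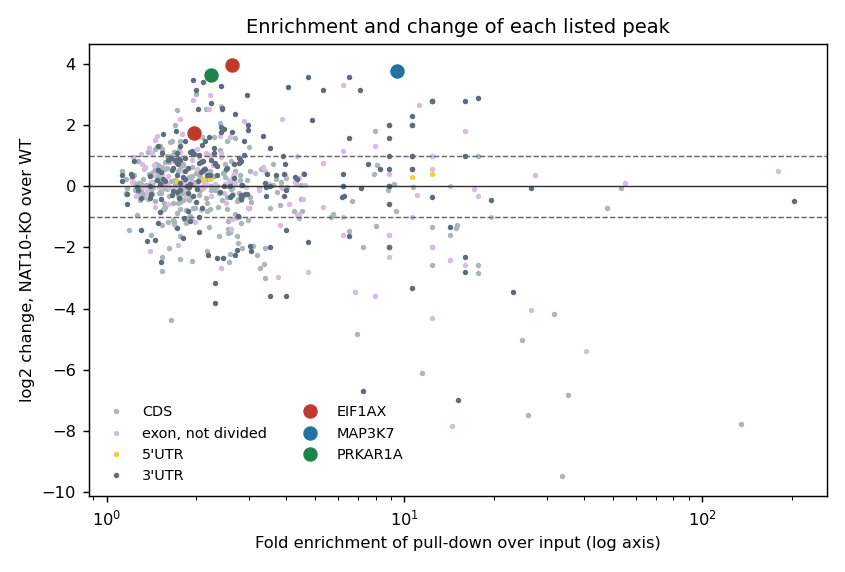
Each point is a listed peak, with its fold enrichment over input on a log axis and its log2 change (NAT10-KO over WT) on the vertical axis, coloured by the assigned region, with dashed lines at 1 and -1. The peaks of EIF1AX and PRKAR1A lie between fold enrichments of 1.97 and 2.64, around the median of 2.24 over all listed peaks, and MAP3K7 lies at 9.47.

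The order of changes had no wide gap behind the 3 genes. Their highest peaks were the top 3 of all listed peaks, at 3.99, 3.77 and 3.66, and the downstream EIF1AX peak was number 54. Next came PAPD5, a poly(A) polymerase, at 3.58, and the tetraspanin CD82, also at 3.58. The p of the difference was 0.037 for PAPD5 and 0.18 for CD82 in the authors' table. The genes that followed with a difference p under 0.05 were HNRNPC, a splicing factor, at 3.47, NCKAP1, of the actin-regulating WAVE complex, at 3.42, RAD21 at 3.29 and NCOA7 at 3.25. SCAPER, at 3.32 in a peak assigned to an exon, had a difference p of 0.23 in the authors' table. The highest peak of all 8 genes, the 3 and the 5 that followed with a difference p under 0.05, was assigned to the 3'UTR. Without that limit on p, 7 of the first 8 genes had their highest peak there, and SCAPER did not. Among all listed peaks 33.1% were assigned to the 3'UTR, and 58 of these 214 peaks (27.1%) were higher. In peaks assigned to an exon 30 of 155 were higher (19.4%), and in the CDS 25 of 273 (9.16%). NCKAP1 had a smaller change than PRKAR1A but the smallest difference p of the 8, 2.5e-18 in the authors' table. No change carries an error, so whether neighbours in this order differ by more than libraries of one condition would cannot be said.

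**Figure D4:**
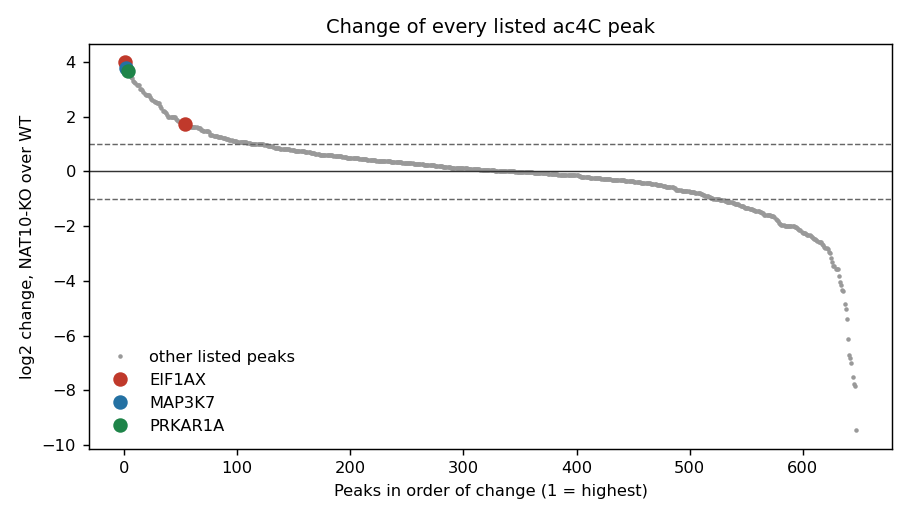
All 647 listed peaks in order of their log2 change (NAT10-KO over WT, vertical axis), with dashed lines at 1 and -1. The highest peaks of EIF1AX, MAP3K7 and PRKAR1A open the order at 3.99, 3.77 and 3.66, and the downstream EIF1AX peak is at 1.74.

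Peaks of the same region with nearly the same fold enrichment gave a range of changes. The 2 peaks nearest to PRKAR1A were those of ARL6IP1, at a fold enrichment of 2.25 with a log2 change of 0.88, and RAB10, at 2.24 with 2.73. Nearest to the 2-block peak of EIF1AX were PRNP, at 2.64 with a change of 1.78, and SRSF1, at 2.63 with -0.29. Nearest to its downstream peak was MARCKS, at 1.97 with a change of 1.06, followed by 3 peaks tied at 1.95, those of CAV1 with -0.31, YWHAZ with 1.07 and HNRNPC with 3.47. The change of this EIF1AX peak, 1.74, thus lay within the range of the changes of its neighbours. For MAP3K7 the nearest value was 8.87, shared by 8 peaks. Their changes ran from -2 in MSX1 to 2 in ARID3A, with ATF2 at 1 and CTSC and NKX3-2 at 0. In the authors' table the difference p of these 8 peaks lay between 0.51 and 0.80. Their adjusted p of enrichment was 0.22 or more, so this range rests on weakly supported peaks. The highest peaks of the 3 genes were chosen as the highest of all, so no neighbour could lie above them.

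No listed peak of another gene lay within the RefSeq span of any of the 3 genes, and no other RefSeq gene overlapped the 4 peaks. The nearest listed peak of another gene was 485448 bases away for PRKAR1A (KPNA2, log2 change 0.94), 1350557 bases for MAP3K7 (PM20D2, 3.17) and 7150790 bases for EIF1AX (TMSB4X, 0.24). EIF1AX has the processed copies EIF1AXP1 and EIF1AXP2, and PRKAR1A has PRKAR1AP1, with 0 listed peaks in each. How reads that match several places were treated is not given in the sources used here, so reads shared between these genes and their copies were not assessed.

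EIF1AX was then set beside other genes of translation initiation. Of a list of 55 genes, 11 had a listed peak, with 23 peaks in all. Without EIF1AX, 4 of 21 peaks were higher (19.0%, against 17.5% of all listed peaks) and 3 were lower (14.3%, against 18.7%), with a median log2 change of 0.49 against 0.05 over the table. A share so near to the background is not a result about the list. The higher peaks were in EIF4A2, an RNA helicase, at 2.14, EIF3E at 1.71 and EIF3A at 1.30, both of the scaffold complex eIF3, and EIF2S2, the beta subunit of eIF2, at 1.14. The lower ones were in EIF5, which promotes GTP hydrolysis by eIF2 at the start codon, at -2.30, EIF2S2 at -1.63 and EIF1, a partner of eIF1A on the small subunit, at -1.12. EIF2S2 thus had a peak in each direction, both in the CDS. EIF1 and EIF5 had their only listed peak in the CDS, whereas both peaks of EIF1AX were in the 3'UTR. The other 14 peaks, in EIF3A, EIF3E, EIF4G2, EIF4H, EIF5B and PABPC1, had log2 changes from -0.66 to 0.94.

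Of 55 genes of TAK1 signalling, 3 had a listed peak, 1 each and all in the 3'UTR. MAP3K7 itself was at 3.77. ATF2, a transcription factor phosphorylated by the JNK and p38 kinases, was at 1 with a difference p of 0.51 in the authors' table, and was not called. DUSP4, a phosphatase of MAP kinases, was lower at -2.36 with a difference p of 1.7e-04 in the authors' table. The other 52 genes, among them the TAK1 partners TAB1, TAB2 and TAB3, were not listed. Of 60 genes of cyclic AMP and protein kinase A signalling, 3 were listed. Besides PRKAR1A at 3.66, GNAI1, an inhibitory G protein subunit that lowers cyclic AMP, had a 3'UTR peak at 2.81 with a fold enrichment of 12.4 and a difference p of 0.0065 in the authors' table. CREBBP, a coactivator of CREB, had a CDS peak at -1.63 with a difference p of 8.1e-06 in the authors' table. The other 57 genes, with all catalytic subunits of the kinase, were not listed. With 2 peaks beside the chosen gene, neither list can be compared with the background.

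**Figure D5:**
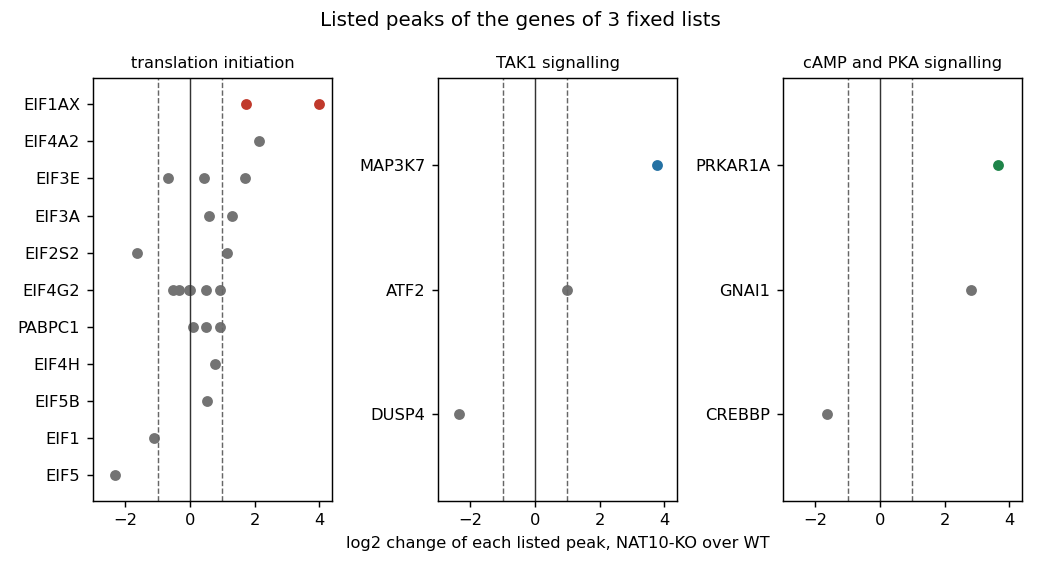
Each point is a listed peak, placed by its log2 change (NAT10-KO over WT), with 1 row per gene, 1 panel per list, and dashed lines at 1 and -1. EIF1AX, MAP3K7 and PRKAR1A are in colour at the top of their panels, and the other genes, from DUSP4 at -2.36 to GNAI1 at 2.81, lie on both sides of 0.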

How the data were processed

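The acRIP-seq data comprised 1 WT and 1 NAT10-KO library of A549. Per the labels, the submitters' processing notes name STAR 2.7.10a and hg38. The authors called peaks over input and annotated them, and the peak caller is not given in the sources used here. In the authors' deposited table each peak has a fold enrichment over input (a ratio), the p-value of that enrichment, its log10 p and log10 FDR (used as a score), the log2 fold change of NAT10-KO against WT, and a log10 p and FDR for that change (a score). The number of blocks was deposited with each peak in other columns. These comparison columns are the authors' own. They are printed as their values for the chosen genes, and 0 columns of a single library were left out.

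The columns do not name the direction of the change. It was read as NAT10-KO over WT because the genes that the study lists as reduced each have a peak with a negative value. Starts were taken as counted from 0, since the block sizes then add up to each span, and are printed from 1. Gene spans are from RefSeq on GRCh38.p14. No sequence under the peaks was used here, so none is printed.

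The genes, lists and comparisons were chosen with earlier results of these data known. The genes named are the 3 genes, listed genes of the fixed lists, the 5 that follow in order with a difference p under 0.05, and the 2 peaks nearest in log2 fold enrichment within a region. Peaks tied with these, pairs of neighbouring peaks, genes with all peaks higher, and CD82 and SCAPER were added after values were seen. Alternatives were other fold and p thresholds, other choices of peak per gene and subsets of peaks. No test was run. Counting and ranking were checked on a table with known answers. Values were computed with Python 3.11.15, pandas 2.3.3 and numpy 2.4.6, and plotted with matplotlib 3.10.9.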

Additional observations from a re-analysis of the deposited data

How the results depend on the processing

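Of 39 alternatives set at the start, 31 left a value as it was, or a count within 1.5 times. Many of these could not have come out otherwise. MAP3K7 and PRKAR1A have 1 peak each, and the 3 genes were chosen as the highest of all. None turned a direction, but counts and ranks cannot turn one. These numbers are thus no measure of how firm the changes are. With the mean over the peaks of each gene in place of its highest peak, the log2 change of EIF1AX was 2.87, and the ranks were 15 for EIF1AX, 1 for MAP3K7 and 2 for PRKAR1A, since only EIF1AX of the 3 has a second, lower peak. Over 0.5 in place of 1, 197 of all 647 listed peaks were higher, and over 1.5, 68 were. In the translation initiation list 11 of 23 peaks were over 0.5, the EIF1AX peaks among them. In the TAK1 signalling list 2 of 3 were, MAP3K7 among them. These genes were chosen as the highest, so the list counts are not set against the share of all listed peaks. More or fewer peaks pass these thresholds by construction. Among 3'UTR peaks only, a comparison added after values were seen, 32.9% had a lower fold enrichment than the downstream EIF1AX peak, 44.6% than PRKAR1A, 56.3% than the 2-block EIF1AX peak and 89.2% than MAP3K7. Repeats of C-led triplets were not searched, since no sequence under the peaks was used here. No read counts were used, so no interval can be given for any change, and each condition has 1 library.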
